A study of Mus musculus with 19 samples.

Results

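AMPA and kainate receptors are the ionotropic glutamate receptors that carry fast excitation in the neocortex, and their 9 subunit genes, Gria1 to Gria4 and Grik1 to Grik5, were followed here across the depth of the mouse primary somatosensory cortex (S1). The 9 genes were taken by name from the 24130 Ensembl genes listed in at least 1 of 7 RNA-seq libraries. Of these, 11409 genes had a 95% interval no wider than 50% of the mean FPKM in any library, a limit termed classifiable below, and 8 of the 9 subunit genes passed it. Grik1, the least abundant of the 9, did not pass, and its widest interval spanned 67.4% of its mean.

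The tissue came from 8 male C57BL/6J mice, 56 days old, in 2 litters of 4. S1 was cut by hand into 6 adjacent segments named A to F from the surface inwards, which approximate layers 1 to 3 (A), layer 4 (B), upper layer 5 (C), lower layer 5 (D), layer 6 (E) and layer 6b (F). Because the cuts overlapped, a segment also holds tissue of adjoining layers. RNA was pooled over the 8 mice for each segment except B, for which each litter gave its own library (B1 and B2, 4 mice each), so layer 4 alone had replicates (n = 2). Another 12 samples, from dorsal and lateral cortex, were not used here. Values are FPKM, fragments per length of the gene model and per mapped fragment, with the 95% interval that cufflinks gave for the estimate within a library. That interval holds no variation between mice, and only the gap between B1 and B2 does. In that gap, differences between litters and between library preparations cannot be told apart.

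AMPA receptors are tetramers of GluA1 to GluA4, the products of Gria1 to Gria4. GluA2, after editing of its transcript at the Q/R site, makes the channel nearly impermeable to calcium, so the amount of Gria2 beside the other subunits is of interest. Kainate receptors are built from GluK1 to GluK3 (Grik1 to Grik3), which can form channels by themselves, and from GluK4 and GluK5 (Grik4 and Grik5), which bind kainate with high affinity and need a partner of the first group. AMPA receptor transcripts as a rule also carry 1 of a pair of mutually exclusive exons, termed flip and flop. They encode part of the ligand-binding domain and alter how fast the receptor desensitises.

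The flip and flop exons are printed because the clearest isoform differences between segments concerned them. The exons of a pair have equal lengths, and capitals mark the positions at which flip and flop of the same gene differ. The sequences are from the GENCODE M21 transcripts (GRCm38, 5′ to 3′ on the coding strand), and the exons were told apart by the amino acids that they encode. For Gria1 (chromosome 11, plus strand) the flip exon lies at chr11:57310608-57310722 and the flop exon at chr11:57309769-57309883.
Gria1 flip: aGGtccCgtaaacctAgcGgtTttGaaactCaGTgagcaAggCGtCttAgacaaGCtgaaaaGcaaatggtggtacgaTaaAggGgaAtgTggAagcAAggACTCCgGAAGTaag
Gria1 flop: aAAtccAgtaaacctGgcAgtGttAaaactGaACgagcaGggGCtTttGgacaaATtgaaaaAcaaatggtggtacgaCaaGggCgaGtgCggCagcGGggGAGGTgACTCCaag
For Gria2 (chromosome 3, minus strand) the flip exon lies at chr3:80690404-80690518 and the flop exon at chr3:80691320-80691434.
Gria2 flip: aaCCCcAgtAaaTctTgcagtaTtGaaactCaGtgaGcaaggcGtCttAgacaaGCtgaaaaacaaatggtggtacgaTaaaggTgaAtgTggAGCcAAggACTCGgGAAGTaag
Gria2 flop: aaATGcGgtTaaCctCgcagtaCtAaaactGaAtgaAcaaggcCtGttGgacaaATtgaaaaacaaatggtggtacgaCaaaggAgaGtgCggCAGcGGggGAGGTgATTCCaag
For Gria4 (chromosome 9, minus strand) the flip exon lies at chr9:4427030-4427144 and the flop exon at chr9:4432773-4432887.
Gria4 flip: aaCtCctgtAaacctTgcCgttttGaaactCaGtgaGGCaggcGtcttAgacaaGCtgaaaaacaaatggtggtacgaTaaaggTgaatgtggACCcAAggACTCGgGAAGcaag
Gria4 flop: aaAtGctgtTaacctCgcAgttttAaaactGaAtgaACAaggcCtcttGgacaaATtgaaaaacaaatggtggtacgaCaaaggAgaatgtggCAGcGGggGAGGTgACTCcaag

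Flip and flop differed at 36 positions in Gria1 and in Gria2, at 32 in Gria3 and at 31 in Gria4. The same exon of different genes was more alike. Flip exons of the 4 genes shared 87.8% to 92.2% of positions pairwise and flop exons 87.8% to 94.8%, against 68.7% to 73% between flip and flop of 1 gene.

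Sequencing depth, estimated from coverage and FPKM, was lowest for A (31.3 M fragments) and highest for B2 (74.9 M), and the mean insert ranged from 164 nt in A to 239 nt in B1, so that A was the shallowest library and that with the shortest inserts. Layer markers followed the labels in part. Summed FPKM of 3 layer 5 genes (Fezf2, Bcl11b, Etv1) was 8.20 to 12.9 in A, B1 and B2, 46.6 for C and 42.3 for D. It was still 33.0 for E and 36.0 for F, and Bcl11b was highest in F (19.5). That of 3 layer 6 genes (Tbr1, Foxp2, Tle4) was 13.4 in A, 46.0 and 32.6 in replicates B1 and B2, 39.5 for C, 67.6 for D, 122 for E and 120 for F. Rorb, a gene of layers 2 to 4, was 5.98 in A and 12.6 in C. Summed FPKM of 3 genes of layers 2 to 4 (Cux1, Cux2, Rorb) was 77.2 to 99.4 in A, B1 and B2 and 14.4 to 39.0 in C to F, and that of 3 layer 6b genes (Ctgf, Cplx3, Nxph4) was 3.91 to 10.9 in A to D, 68.0 in E and 373 in F. Markers of other cells shifted with depth as well. Summed FPKM of 8 oligodendrocyte markers was 326 in A, 841 and 850 in replicates B1 and B2, 1643 for C, 2202 for D, 4090 for E and 12506 for F, that of 8 interneuron markers was lowest in A (306) and highest in D (579), and none of the markers in these lists was at 0. Summed FPKM of 4 endothelial markers was 77.4 in A and 36.0 to 51.1 elsewhere, and that of 5 striatal markers ran from 55.4 in C to 189 in F, with Drd1 at 0.711 in A and 11.8 in F. Of 6 astrocyte markers, Gfap was high at both ends, with 34.4 in A, 4.42 in C and 126 in F. Aqp4, Gja1, Slc1a2 and Slc1a3 were instead lowest in A, and Aldh1l1 was 24.6 in A and 21.0 in F. The part of these cell markers in the results that follow was not tested. In tissue of mixed cells, fewer cells of a type and less RNA per cell cannot be told apart.

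The scale of the libraries also moved with depth. The median gene had 1.496 times as many FPKM in F as in A, a shift of 0.58 on the log2 scale, by the median of ratios over classifiable genes. Differences of the subunit genes were therefore also given relative to that shift.

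**Figure D1:**
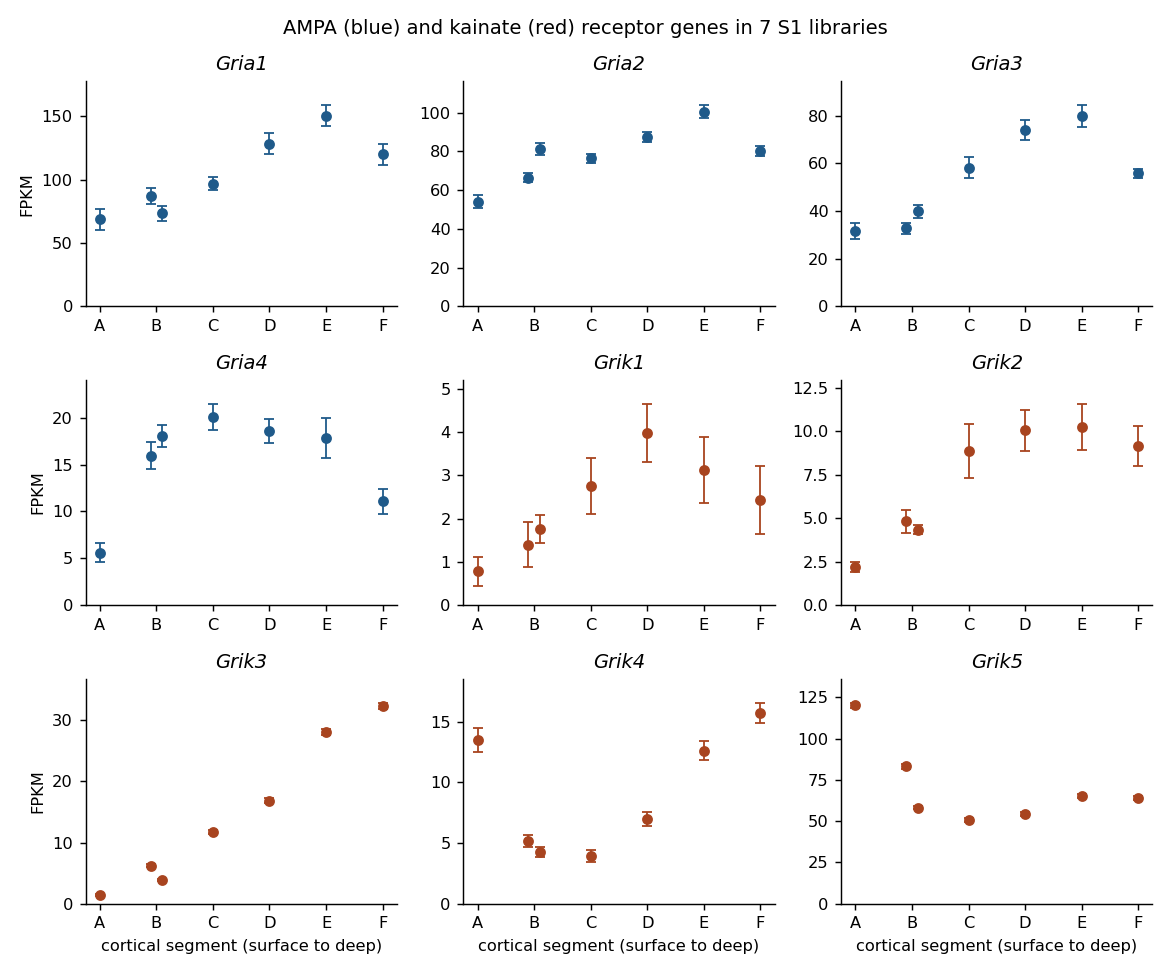
FPKM of each subunit gene (vertical axis, linear, from 0) in segments A to F (horizontal axis, surface to deep), with 1 point for each of the 7 libraries and bars for the 95% interval within a library. The AMPA receptor genes except Gria4 peak in E, Grik3 climbs from 1.45 in A to 32.3 in F, Grik4 is lowest in the middle segments, and Grik5 is highest in A.

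By gene FPKM, Gria1 and Gria2 were the most abundant AMPA receptor genes in each library, a rank that for Gria1 rests on short transcript models described further on. Gria1 (mm9 chr11:56825068-57143746) stood at 68.6 FPKM in A, 87.1 and 73.4 in replicates B1 and B2, 96.8 for C, 128 for D, 150.4 for E and 119.9 for F. As deposited, it was lowest at the surface and highest in layer 6, a 2.19-fold range, and E lay above each other library by its interval (142 to 159). The order from E downward was D, F, C, B1, B2 and A, and the intervals overlapped between D and F, between C and B1, and between B2 and A. B1 was 1.19-fold above B2, with intervals that did not overlap. Scaled by the median of ratios, Gria1 was highest in E (134.6) and lowest in B2 (77.9), with 89.6 in A. On the pan-neuron scale, set by 6 pan-neuron markers, it was lowest in B2 and highest in F. The isoforms that GENCODE M21 calls protein-coding had 53.2 FPKM in C, 56.2 in D and 58.1 in E. Most of the rise of the gene value from C to E thus lay in the short models.

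Gria2 (mm9 chr3:80488858-80606713) was 54.1 FPKM in A, 66.4 and 81.1 in replicates B1 and B2, 76.3 for C, 87.5 for D, 100.4 for E and 79.9 for F. Its range over segments, 1.86-fold, was the narrowest of the 9 genes. The 2 layer 4 libraries lay apart here too, B1 at 0.819 times B2, and C lay between them. Scaled by the median of ratios, Gria2 was highest in E (89.8) and lowest in F (69.8), with 70.6 in A. On the pan-neuron scale it was lowest in C and highest in F.

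Gria3 (mm9 chrX:38754305-39031778) had 31.6 FPKM in A, 32.8 and 39.9 in replicates B1 and B2, 58.2 for C, 74.1 for D, 79.8 for E and 55.8 for F. The 3 superficial libraries lay below the 4 deep ones with no overlap of intervals, and A and B1 overlapped, as did D and E. Scaled by the median of ratios, Gria3 was lowest in B1 (34.7), with 41.2 in A, and highest in E (71.4). The pan-neuron scale put its lowest and highest values in the same libraries. Gria3 was 0.584 of Gria2 in A, 0.494 and 0.492 in replicates B1 and B2, 0.762 for C, 0.846 for D, 0.795 for E and 0.698 for F, a step up between layer 4 and upper layer 5. For this ratio the gap between B1 and B2 was 0.01 on the log2 scale, against a span of 0.78 over the libraries.

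Gria4 (mm9 chr9:4417896-4796142), which encodes a subunit of fast AMPA receptors prominent in interneurons, was the scarcest of the AMPA receptor genes. It had 5.59 FPKM in A, 15.9 and 18.0 in replicates B1 and B2, 20.1 for C, 18.6 for D, 17.8 for E and 11.1 for F. The middle 5 libraries overlapped with their neighbours in rank, F lay below them and A below F, so the profile was an arch with a 3.60-fold range. Gria4 per Gria2 was 0.103 in A, 0.240 and 0.222 in replicates B1 and B2, 0.263 for C, 0.213 for D, 0.178 for E and 0.139 for F. The summed FPKM of the interneuron markers also formed an arch, 306 in A, 387 and 388 in replicates B1 and B2, 540 for C, 579 for D, 452 for E and 338 for F, of which Sst and Pvalb made up most. These did not share its low in A, since Pvalb was lowest in F (16.5, with 61.1 in A) and Sst in B2 (154, with 177 in A). Gad1, Gad2, Slc32a1 and Lhx6 were lowest in A, whereas Vip was 15.2 in A and 5.32 in F and Dlx1 7.08 and 8.08. The part of the interneuron markers in the Gria4 values was not tested.

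The kainate receptor genes had ranges over segments of 2.37-fold to 22.3-fold, beside 1.86-fold to 3.60-fold for the AMPA receptor genes. Grik3 (mm9 chr4:125167944-125391417) was 1.45 FPKM in A, 6.22 and 3.85 in replicates B1 and B2, 11.7 for C, 16.8 for D, 28.0 for E and 32.3 for F. The 7 libraries were in the order of depth, and the intervals of libraries next to each other in that order did not overlap, including B1 and B2, which were 1.62-fold apart. F was 22.3-fold above A, the widest range of the 9 genes, and 14.9-fold above it when scaled by the median of ratios.

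Grik2 (mm9 chr10:48819266-49508572) rose in steps, from A to B and from B to C. It had 2.21 FPKM in A, 4.82 in B1 and 4.34 in B2, and then 8.87 for C, 10.1 for D, 10.3 for E and 9.16 for F. The 4 deep libraries overlapped with their neighbours in rank, as did B1 and B2, and the gaps between C and B1 and between B2 and A were clear of the intervals. Grik1 (mm9 chr16:87896142-88056421) was likewise lowest in A and higher in the deep segments, with 0.778 in A, 1.39 and 1.76 in replicates B1 and B2, 2.74 for C, 3.98 for D, 3.12 for E and 2.43 for F. Its intervals were wide, and libraries next to each other in rank overlapped throughout, whereas A (0.445 to 1.11) and D (3.31 to 4.65) did not.

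The genes of the high-affinity subunits had other profiles. Grik5 (mm9 chr7:25794895-25857311) was the most abundant kainate receptor gene in each library. It had 120.0 FPKM in A, 83.1 and 58.1 in replicates B1 and B2, 50.7 for C, 54.5 for D, 65.4 for E and 64.0 for F. A lay 2.37-fold above C, and the deeper segments spread over less than the gap between B1 and B2, which was 1.43-fold. Grik4 (mm9 chr9:42326218-42752576) was high at both ends, with 13.5 FPKM in A, 5.16 and 4.27 in replicates B1 and B2, 3.95 for C, 6.98 for D, 12.6 for E and 15.7 for F. F and A lay apart by their intervals, A and E overlapped, and C overlapped with B2 at the bottom, a 3.98-fold range.

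The 5 kainate receptor genes together had 138 FPKM in A, 101 and 72.3 in replicates B1 and B2, 78.0 for C, 92.3 for D, 119 for E and 124 for F. Grik5 made up 87.0% of that sum in A, 82.5% and 80.3% in replicates B1 and B2, 65.0% for C, 59.0% for D, 54.7% for E and 51.8% for F, while the share of Grik3 went from 1.05% in A to 26.1% in F. The summed AMPA receptor genes had 159.8 FPKM in A, 202 and 212 in replicates B1 and B2, 251 for C, 309 for D, 349 for E and 267 for F. Within that sum Gria2 held 28.4% to 38.2% and Gria4 3.50% to 8.49%. The sum takes the whole Gria1 value, of which isoforms that GENCODE M21 calls protein-coding made up 38.2% to 54.9%. On those isoforms alone the shares of Gria2 and Gria4 would be higher.

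**Figure D2:**
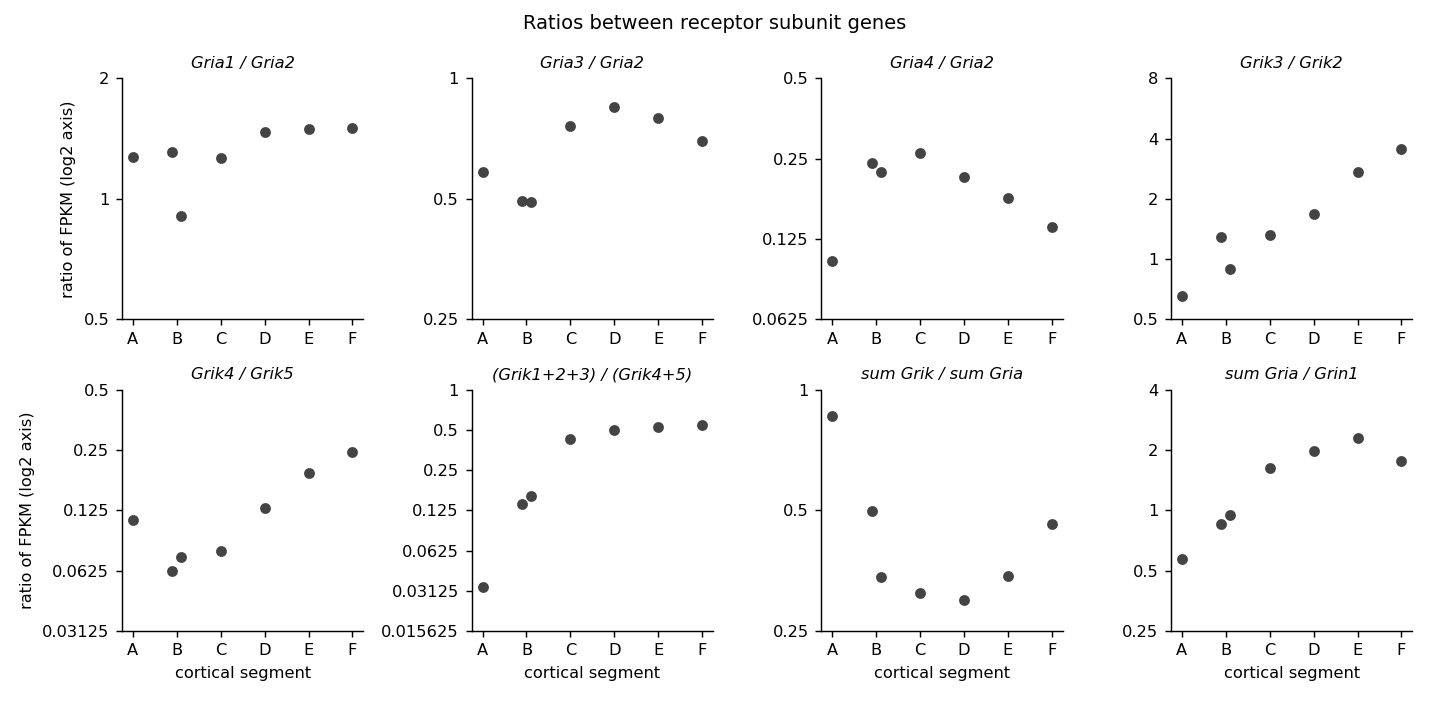
Ratios of FPKM between subunit genes (vertical axes, log2 scale) in segments A to F (horizontal axis, surface to deep), 1 point per library. The ratio of Grik1 to Grik3 over Grik4 and Grik5 lies at 0.0332 in A and at 0.428 to 0.551 in C to F, whereas Gria1 over Gria2 spans 0.905 to 1.4997 with B1 and B2 far apart.

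Of the 8 subunit ratios, the widest spans were those of summed Grik1 to Grik3 over Grik4 and Grik5 and of Grik3 over Grik2. The summed FPKM of Grik1, Grik2 and Grik3 over that of Grik4 and Grik5 was 0.0332 in A, 0.141 and 0.159 in replicates B1 and B2, 0.428 for C, 0.502 for D, 0.531 for E and 0.551 for F, a rise of 4.05 on the log2 scale from A to F beside a gap of 0.18 between B1 and B2. Grik3 over Grik2 was 0.657 in A, 1.29 and 0.886 in replicates B1 and B2, 1.32 for C, 1.67 for D, 2.73 for E and 3.53 for F. Here the change from A to F was 2.43 and the gap between B1 and B2 was 0.54, B2 being lower. With values centred by GC content the changes from A to F were 3.20 and 3.06. Summed Gria over Grin1, which encodes the obligatory subunit of NMDA receptors, was 0.571 in A, 0.859 and 0.951 in replicates B1 and B2, 1.63 for C, 1.97 for D, 2.29 for E and 1.77 for F, a change from A to F of 1.63 that came to 0.76 after GC centring. Grin1 itself, outside the classifiable limit, went from 279.8 FPKM in A to 150.3 in F.

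Gria1 over Gria2 differed by 0.24 between F and A (log2) and by -0.54 between B2 and B1, so that the change from A to F was smaller than the gap between litters. From B2, the lowest, to F, the highest, it spanned 0.73. With only the Gria1 isoforms that GENCODE M21 calls protein-coding, this ratio was instead highest in C (0.697), with 0.572 in F. Gria3 over Gria2 and Gria4 over Gria2 differed by 0.26 and 0.42 between F and A, beside gaps between B1 and B2 of 0.01 and 0.11, and GC centring gave 0.26 and 0.46. Their highest values were in D and C rather than at either end. Grik4 over Grik5 was 0.112 in A, 0.0621 and 0.0734 in replicates B1 and B2, 0.0779 for C, 0.128 for D, 0.193 for E and 0.246 for F, a change of 1.13 that came to 0.60 after GC centring. Summed Grik over summed Gria was 0.863 in A, 0.498 and 0.341 in replicates B1 and B2, 0.310 for C, 0.299 for D, 0.343 for E and 0.464 for F. Its difference between F and A was -0.90 as deposited and -0.01 after GC centring.

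A trend with segment position was fitted to log2(FPKM + 0.1) of the 7 libraries with limma, with a linear and a quadratic term tested together. The trend was called at a Benjamini-Hochberg adjusted p under 0.05 over all classifiable genes, and the direction is that of the slope from a linear fit. Of the 8 classifiable subunit genes 7 were called, beside 43.5% of all classifiable genes, 35.5% with a slope above 0 and 8.06% below it. The libraries other than B1 and B2 are single pools, so the spread behind the test is the departure of libraries from a smooth curve and, outside layer 4, not the variation between mice.

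Among the AMPA receptor genes, Gria1 (slope 0.21 ± 0.06 SE per segment step, limma adjusted p = 0.0206), Gria3 (0.24 ± 0.08, adjusted p = 0.0186) and Gria4 (0.11 ± 0.13, adjusted p = 0.0125) were called and Gria2 (0.12 ± 0.05, adjusted p = 0.0667) was not. With the linear term alone neither Gria3 (limma adjusted p = 0.0612) nor Gria4 (adjusted p = 0.548) was called. The median slope of all classifiable genes was 0.09. On the median-of-ratios scale the slopes were 0.11 for Gria1, 0.02 for Gria2, 0.14 for Gria3 and 0.01 for Gria4. Of the 4 genes Gria4 alone was still called (limma adjusted p = 0.0258), beside 33% of all classifiable genes. Relative to the typical gene, F over A was 1.17 for Gria1, 0.988 for Gria2, 1.18 for Gria3 and 1.33 for Gria4.

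Among the kainate receptor genes, Grik3 (slope 0.84 ± 0.10, limma adjusted p = 0.00193) and Grik2 (0.39 ± 0.09, adjusted p = 0.00241) rose. Grik5 (-0.12 ± 0.08, adjusted p = 0.0477) and Grik4 (0.21 ± 0.15, adjusted p = 0.0278) were called, each with its minimum in C. With the linear term alone only Grik2 and Grik3 of the kainate receptor genes were called. Grik5 then had a limma adjusted p of 0.287 and Grik4 one of 0.314. With a pseudocount of 0.01 Grik5 was not called either (adjusted p = 0.0585). Grik1, tested among 17844 genes whose mean reached 0.1 FPKM, had a slope of 0.31 ± 0.11 and a limma adjusted p of 0.00751, beside 34.5% of genes called in that fit, 27% with a slope above 0 and 7.54% below it. On the median-of-ratios scale these 5 genes were still called with slopes of the same sign. Beside them 33% of classifiable genes were called, 17.3% upward and 15.6% downward, and 26.3% in the fit that held Grik1. F over A was then 2.08 for Grik1, 2.77 for Grik2, 14.9 for Grik3, 0.779 for Grik4 and 0.356 for Grik5. For Grik4 that ratio lay on the other side of 1 than the deposited 1.17.

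Library A had much weight in these calls. Without it 10.1% of classifiable genes were called and 4 of the 8 subunit genes, with slopes of 0.70 for Grik3 (limma adjusted p = 0.0185), 0.27 for Grik2 (adjusted p = 0.0268), 0.47 for Grik4 (adjusted p = 0.04) and 0.22 for Gria3 (adjusted p = 0.0322). The slope of Gria4 was then -0.11 and that of Grik5 -0.02, neither called. Without A and F 0 of 8 were called by limma beside 0.0263% of all genes, while slopes stayed at 0.83 for Grik3, 0.41 for Grik2, 0.45 for Grik4, 0.40 for Gria3 and 0.31 for Gria1. GC content moved with the calls too. The median classifiable gene had 50% GC, Gria2, Grik2 and Gria3 had 36.8%, 37.9% and 39.8%, and Grik5 had 61.7%. With values centred in 20 bins of GC content, 3 of 8 genes were called beside 30.1% of all genes, namely Grik3 (slope 0.76), Grik2 (0.18) and Gria4 (-0.08), and the slope of Gria2 was -0.09. How far GC content itself acted was not tested.

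The same genes were compared segment by segment through the intervals. Between A and F, 8 of 8 subunit genes had intervals that did not overlap, 7 higher in F and Grik5 lower, beside 85.2% of all classifiable genes (60.8% higher and 24.4% lower). On the median-of-ratios scale the count was 5, beside 79.9% of all genes. Between B1 and B2 the intervals of 6 of 8 lay apart beside 66.4% of all genes (32.1% higher and 34.3% lower in B2), with Gria2 and Gria3 higher in B2 and Gria1, Grik3, Grik4 and Grik5 higher in B1. Intervals thus also separated the litters, and neighbouring segments were counted as different across layer 4 only where both B1 and B2 differed the same way.

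By that count, B lay above A for Gria2, Gria4, Grik2 and Grik3 and below it for Grik4 and Grik5, 6 of 8 genes beside 62.8% of all genes (42.6% higher and 20.2% lower). C lay above B for Gria3, Grik2 and Grik3 and below it for Grik5, 4 of 8 beside 37.3% (29.6% higher and 7.7% lower). From C to D 6 genes were higher (Gria1, Gria2, Gria3, Grik3, Grik4 and Grik5) beside 34.3% of all genes apart, 18.8% higher and 15.5% lower. From D to E 5 genes were higher (Gria1, Gria2, Grik3, Grik4 and Grik5) beside 45.1% apart, 27.7% higher and 17.3% lower, and no subunit gene was lower at either of these steps. From E to F the 4 AMPA receptor genes were lower, beside 25% of all genes, while Grik3 and Grik4 were higher, beside 28.7%, and 53.8% lay apart in all. Oligodendrocyte markers went from 4090 to 12506 summed FPKM at that step, and their part in the lower values of the AMPA receptor genes was not tested. On the pan-neuron scale Gria1 and Gria2 were not lower in F, where both had their highest values.

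The flip and flop isoforms of Gria1, Gria2 and Gria4 differed between segments in a similar order. Flip share is used here for the FPKM of isoforms with flip alone over that of isoforms with flip alone or flop alone. Its range in parentheses combines the bounds of the 95% intervals. In Gria1 these isoforms made up only 38.2% to 54.9% of the gene value, and the exons of its other models were not determined. The share in Gria1 was 84.4% in A (73.4% to 93.5%), 24.1% and 32.9% in replicates B1 and B2, 11.3% for C (8.07% to 14.6%), 22.2% for D, 35.6% for E and 53.5% for F (47.3% to 59.8%). It was lowest in upper layer 5, higher in layers 4 and 6, and highest in the outermost segments, where A and F did not overlap with the others.

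In Gria2 the flip share was 67.0% in A (62.4% to 71.5%), 26.8% and 31.1% in replicates B1 and B2, 17.2% for C (15.1% to 19.4%), 18.6% for D, 27.9% for E and 41.5% for F (39.3% to 43.8%). The 2 segments of layer 5 overlapped at the bottom, and F and A lay above the rest. In Gria4 it was 63.8% in A (51.0% to 76.6%), 13.3% and 14.2% in replicates B1 and B2, 7.26% for C, 7.99% for D, 17.9% for E and 51.0% for F (42.5% to 59.6%). Here A and F overlapped with each other and lay apart from the other 5 libraries.

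The gap between B1 and B2 was 8.8 percentage points in Gria1, 4.3 in Gria2 and 0.95 in Gria4. The full-length flip and flop isoforms of these 3 genes have equal lengths, and Gria1 has a second, shorter flip isoform. That isoform was not classifiable and was listed only in A (9.32 of 22.1 flip FPKM) and in B2 (1.63). It thus raised the Gria1 flip share in those libraries alone. The flip isoform of Gria4 was not classifiable, since its intervals were wide for its low level. Gria3 was unlike the others. Flip made up 100% in A, where the flop isoform was listed at 0, 87.1% and 87.9% in replicates B1 and B2, 68.5% for C, 70.2% for D, 69.5% for E and 72.0% for F. Its flop isoform is 3081 nt long against 5192 nt for the flip isoform, so the 2 models also differ outside the exon. A further Gria3 isoform of 5172 nt, of the nonsense-mediated decay type in GENCODE M21, holds both exons and was left out of the share. It took 29.6% of the gene in A, 12.3% and 20.7% in replicates B1 and B2, 22.4% for C, 6.81% for D, 6.58% for E and 0% for F. The 100% in A thus leaves out a model that also holds flop.

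**Figure D3:**
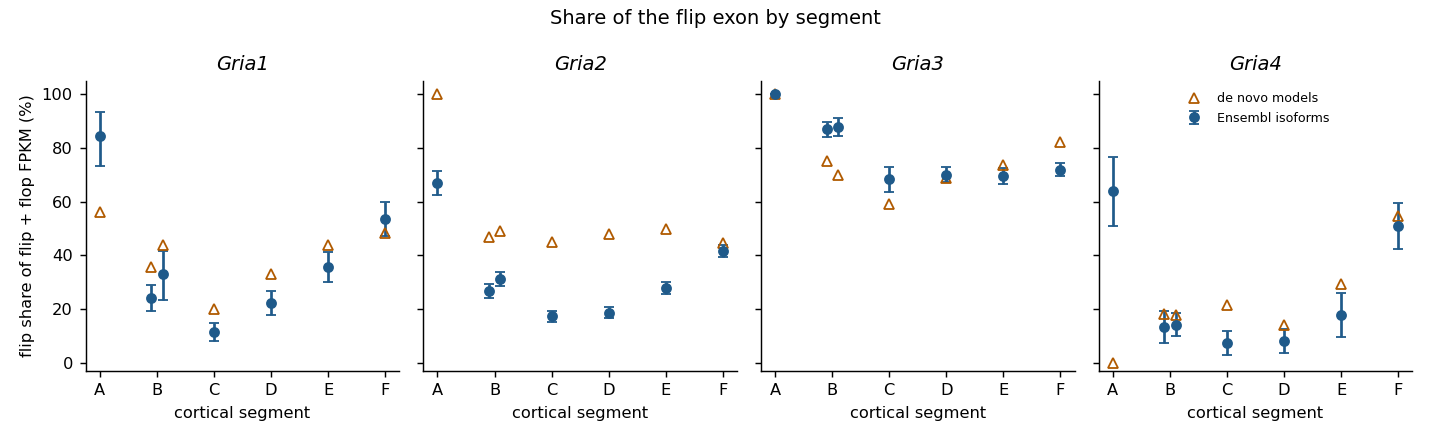
Flip share (vertical axis, percent of the FPKM of flip and flop isoforms) of Gria1 to Gria4 in segments A to F (horizontal axis), 1 point per library. Filled circles are Ensembl isoforms with bars that combine the 95% bounds, and open triangles are de novo models. The circles of Gria1, Gria2 and Gria4 are lowest in C and highest in A, and the triangles of Gria2 stay between 44.7% and 49.9% outside A.

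In absolute terms both isoforms moved. Gria1 flip was 22.1 FPKM in A and 6.02 in C, while flop was 4.08 in A and 47.1 in C, and in F flip was 24.5 and flop 21.3. Gria2 flip was 36.2 FPKM in A, 13.2 in C and 33.2 in F, and flop was 17.9, 63.2 and 46.7 in the same libraries. Gria4 flip was 3.57 in A, 1.46 in C and 5.66 in F, and flop was 2.02, 18.6 and 5.43. Flip and flop lay apart in opposite directions in 11 of the 21 pairs of libraries for Gria1, 12 for Gria2, 7 for Gria4 and 0 for Gria3, and in none of these 4 genes was B1 with B2 such a pair. Pairs without A numbered 7 of the 11, 7 of the 12 and 5 of the 7.

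Such opposite changes were common among genes. Of genes with at least 2 classifiable isoforms, 82.1% had isoforms apart in opposite directions in some pair of libraries and 38.9% did so between B1 and B2. The subunit genes gave 3 of 4 (Gria1, Gria2 and Grik4, but not Gria3) in some pair and 0 of 4 between B1 and B2. For Grik4 the pair was A and F, in which 31.3% of genes had such a change. Over each listed isoform the counts were 7 of 7 beside 73.4% of genes in some pair, and 1 of 7 (Grik2) beside 30.9% between B1 and B2. A trend fit to log2 isoform share called 0 of 4861 isoforms at a limma adjusted p under 0.05 (1203 at an unadjusted p under 0.05), and with a pseudocount of 1 it called 77, or 1.58%. For Gria2 and for Gria3 the adjusted p was 0.122 in the first fit and 0.0498 in the second, and for Gria1 flip 0.155 and 0.1. Without library A the slope of Gria2 flip share turned from -0.18 to 0.16 (adjusted p = 0.432).

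De novo transcript models, which the authors built from the reads without the annotation, gave other levels of flip share. In Gria1 they had 56.2% in A, 35.7% and 43.8% in replicates B1 and B2, 20.2% for C, 33.0% for D, 43.8% for E and 48.5% for F, lowest in C and highest in A as before but over a narrower range. In Gria2 flip took 100% in A and 44.7% to 49.9% in the other 6 libraries, so that the difference between F and C was absent from these models. The 100% arose because no flop model was built in A, where the annotated flop isoform had 17.9 FPKM. In Gria4 A held 1 flop model of 1.1225 FPKM and no flip model, which puts the share at 0% where the annotated isoforms gave 63.8%, whereas F (54.8%) again lay above B1 to E (14.1% to 29.3%). For Gria3 they ranged from 59.3% in C to 82.3% in F and 100% in A, where again no flop model was built. Both sets therefore had Gria1 lowest in C and Gria4 highest in F among B1 to F. They differed on Gria2 outside A and on Gria4 in A, the library with the fewest fragments. Among B1 to F the de novo share of Gria4 was lowest in D, with 21.4% in C, where annotated isoforms had their lowest share. For Gria3 the de novo share was higher in F than in B1 (75.0%) and B2 (70.0%), the reverse of the annotated isoforms.

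Gria1 had more listed isoforms than those that could be told to hold flip or flop. The short models absent from GENCODE M21 (688 nt, 405 nt and 2150 nt) made up the rest of its FPKM. Which of the exons, if any, they hold was not determined. The 405 nt model was 11.5 FPKM in A, 22.4 and 15.1 in replicates B1 and B2, 0 for C, 35.3 for D, 63.4 for E and 35.9 for F, and the 688 nt model was 21.9, 15.2, 10.9, 28.1, 15.6, 0 and 7.85 in the same libraries. Each was listed at 0 where the other was high, in C and in E. The isoforms that GENCODE M21 calls protein-coding had 26.2 FPKM in A, 40.1 and 38.0 in replicates B1 and B2, 53.2 for C, 56.2 for D, 58.1 for E and 45.7 for F, between 38.2% and 54.9% of the gene value. On those isoforms alone Gria1 was 0.469 to 0.697 of Gria2, below it in each library, while on the gene value it was above Gria2 in 6 of 7 libraries. In each library except B1 these isoforms were also below the whole Gria3 gene. Gria3 had 31.6 FPKM in A, 32.8 and 39.9 in replicates B1 and B2, and 58.2, 74.1, 79.8 and 55.8 in C to F. The rank of Gria1 among the AMPA receptor genes, and most of its rise from C to E, hence rest on short models.

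**Figure D4:**
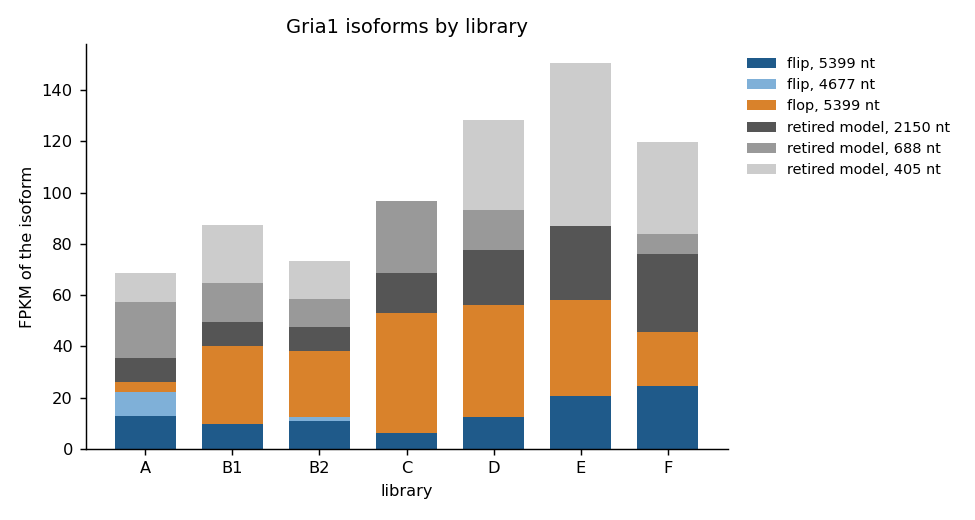
FPKM of the 6 listed Gria1 isoforms (stacked bars, vertical axis from 0) in the 7 libraries (horizontal axis), by exon and length of the model, with grey for models absent from GENCODE M21. The flip and flop models (blue and orange) reach 26.2 to 58.1 FPKM, and the grey models make up the rest, with the 405 nt model at 63.4 in E and 0 in C.

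Isoforms of the kainate receptor genes were measured less well. Grik3 and Grik5 had 1 listed isoform each. Grik4 had 2 classifiable isoforms, of 3351 nt and 5887 nt, and the shorter took 67.9% in A, 73.4% and 67.8% in replicates B1 and B2, 72.0% for C, 75.2% for D, 78.1% for E and 79.8% for F. D, E and F lay above both layer 4 replicates, and A was level with B2. Between A and F the shorter isoform went from 9.16 to 12.5 FPKM and the longer from 4.34 to 3.18. For Grik2, the 4800 nt isoform took 45.5% to 90.2% and 1 other, of 2727 nt, was listed at 0 in A and B2 and at up to 37.4% in F, with 64.2% and 90.2% for the first in B1 and B2. For Grik1, the 2900 nt isoform took 49.1% in B1 and 78.0% in B2, and no isoform of it was classifiable.

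Genes of the same signalling system were drawn from a list of 42, of which 41 were listed and 36 classifiable. In the trend fit 16 had a called slope above 0, 6 a called slope below 0 and 14 were not called. Of all classifiable genes 43.5% were called, 35.5% upward and 8.06% downward. Scaled by the median of ratios, the counts were 9, 9 and 18, beside 17.3% of all genes called upward and 15.6% downward. Among the auxiliary subunits, which accompany the receptors and alter their gating and trafficking, 3 of 12 were called upward and 2 downward. Scaled by the median of ratios, 2 were called upward and 4 downward, beside 17.3% and 15.6% of all genes. Neto1, the auxiliary protein of kainate receptors, was 5.51 FPKM in A, 7.18 and 8.23 in replicates B1 and B2, 16.5 for C, 24.4 for D, 31.9 for E and 24.2 for F (slope 0.51 ± 0.09, limma adjusted p = 0.00423), and its relative Neto2 was also called upward. Cacng2, encoding the AMPA receptor partner stargazin, was 49.2 in A, 44.6 and 43.5 in replicates B1 and B2, 36.0 for C, 33.9 for D, 26.5 for E and 20.9 for F (slope -0.24 ± 0.04, adjusted p = 0.00629). Both calls held with values scaled by the median of ratios. The third upward call, Cacng4, had a slope of 0.00, with 12.2 FPKM in A, 6.11 in D and 11.2 in F. After such rescaling it was called downward (slope -0.10, limma adjusted p = 0.0107). Cnih2, cornichon 2, had the highest mean of the class (113 FPKM) and was not called as deposited. After rescaling it was called downward (slope -0.12, limma adjusted p = 0.0437).

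Of 7 genes of assembly and trafficking, 5 were called upward and 0 downward, beside 35.5% and 8.06% of all classifiable genes. Scaled by the median of ratios, 3 were called upward and 0 downward, beside 17.3% and 15.6%. Grip2, a scaffold that binds the tail of GluA2 and GluA3, had the steepest slope (0.34 ± 0.11, limma adjusted p = 0.00647), with 0.949 FPKM in A and 4.69 in E, and Nsf, an ATPase that binds GluA2, had the highest mean (185 FPKM) and a slope of 0.24 ± 0.11 (adjusted p = 0.0054). Among 5 scaffolds 3 were called upward, and 2 after rescaling, beside the same shares of all genes. Dlg2 led them (18.9 FPKM in A, 76.5 in F, slope 0.29 ± 0.10, limma adjusted p = 0.0361) but was no longer called after rescaling (adjusted p = 0.123). Dlg4, encoding PSD-95, had the highest mean (308 FPKM) and was not called. It was 443 FPKM in B1 and 284 in B2, and 267 to 321 in the other libraries.

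Secreted and adhesive partners went both ways. Nptx1, neuronal pentraxin 1, was 29.0 FPKM in A, 59.8 and 40.8 in replicates B1 and B2, 46.5 for C, 90.7 for D, 179 for E and 191 for F (slope 0.56 ± 0.07, limma adjusted p = 0.0054). C1ql3, which binds kainate receptors and adhesion receptors at the synapse, was 162 in A, 57.2 and 50.1 in replicates B1 and B2, 27.4 for C, 35.0 for D, 42.3 for E and 23.5 for F (slope -0.39 ± 0.12, adjusted p = 0.024). Olfm1, the most abundant of the class (mean 697 FPKM), was also called downward (slope -0.15 ± 0.06, adjusted p = 0.0489). Nptx1 was highest in the 2 deepest segments, as Grik3 was, and C1ql3 was highest in A, as Grik5 was.

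**Figure D5:**
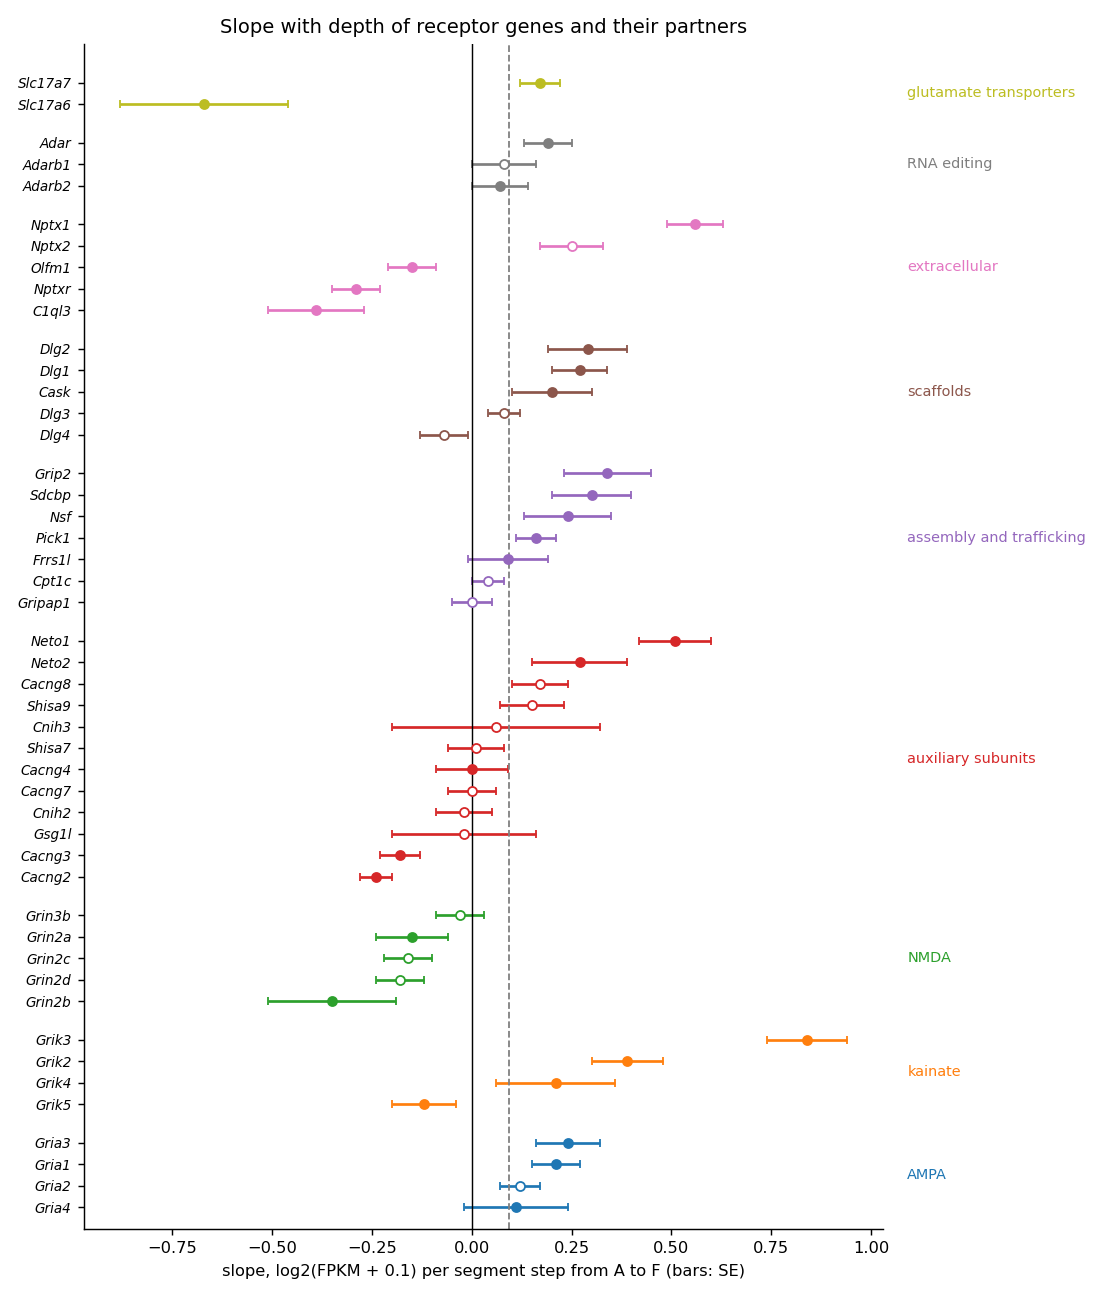
Slope of log2(FPKM + 0.1) per segment step from A to F (horizontal axis; bars are the standard error) for the classifiable subunit genes, NMDA receptor genes and most classifiable partner genes (vertical axis, by class). Filled points passed the trend test, open points did not, and the dashed line is the median of all classifiable genes (0.09). Grik3 (0.84) lies farthest to the right and Slc17a6 (-0.67) farthest to the left.

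Of the RNA editing enzymes, Adar had the highest mean of its class (30.6 FPKM) and a slope of 0.19 ± 0.06 (limma adjusted p = 0.0235), lost after rescaling (adjusted p = 0.17). Adarb1, which edits the Q/R site of Gria2, was not called (slope 0.08, adjusted p = 0.0603). The level of editing itself was not measured in these files. Slc17a7, the vesicular glutamate transporter of cortical neurons, rose from 435 FPKM in A to 799 in F (slope 0.17 ± 0.05, adjusted p = 0.0452) and was not called after rescaling (adjusted p = 0.399). Slc17a6, the transporter of thalamic neurons, was 1.99 FPKM in A, 7.73 and 7.86 in replicates B1 and B2, 6.43 for C, 2.39 for D, 0.845 for E and 0.366 for F (slope -0.67 ± 0.21, adjusted p = 0.00693). Among 5 classifiable NMDA receptor genes 0 were called upward and 2 downward, beside 35.5% and 8.06% of all classifiable genes. After scaling by the median of ratios 4 were called downward, beside 15.6% of all genes. As deposited, their median slope was -0.16, where the 4 AMPA receptor genes had a median of 0.16 and the 4 kainate receptor genes one of 0.30.

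The genes whose profiles were most like those of the subunit genes were found by Pearson's r of log2(FPKM + 0.1) over the 7 libraries, among 10144 classifiable genes whose mean reached 1 FPKM. With 7 points and that many genes, values of r near 1 were reached for each subunit, and they are given as a description. The 3 genes nearest to Grik3 were Rapgef6, Klhl3 and A830018L16Rik (r = 0.995 to 0.997), and A830018L16Rik went from 6.77 FPKM in A to 32.6 in F. Nearest to Grik2 were Tmem74, Fam102b and Gmps (0.996 to 0.997), and nearest to Grik1 were Gpr22, Btbd10 and Emb (0.987 to 0.989). Grik4 was most like Thra, the gene of thyroid hormone receptor alpha, with r = 0.991 and 385 FPKM in A, 198 and 168 in replicates B1 and B2, 179 for C, 238 for D, 339 for E and 376 for F, followed by Ppp2r5a (0.976) and Zbtb14 (0.963). Grik5 was most like Gm16295, Mzf1 and 2900079G21Rik (0.991 to 0.995).

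For the AMPA receptor genes the nearest were 9530077C05Rik, Smap2 and Diras2 to Gria1 (0.982 to 0.996), and Tlk1, Nt5c3 and Ddx5 to Gria2 (each 0.992). Prkcb (0.988) and Ppid (0.985) were among the 3 nearest to Gria3. Camta1, Zdhhc3 and Diexf were nearest to Gria4 (0.993 to 0.996), and Camta1, a transcription activator, had 27.9 FPKM in A, 58.3 and 67.2 in replicates B1 and B2, 66.7 for C, 67.2 for D, 64.0 for E and 44.2 for F. Among the subunit genes themselves r was 0.96 between Grik1 and Grik2 and between Grik2 and Grik3, and 0.91 between Gria1 and Gria3. Gria4 and Grik5 had r = -0.86. Without library A, 0 or 1 of the 3 nearest genes stayed among the 3 nearest for each subunit.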

How the data were processed

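Polyadenylated RNA of 7 S1 pools was sequenced with paired ends. The authors mapped reads to mm9 with TopHat 1.0.13 and used Cufflinks 0.8.3 to estimate FPKM with 95% intervals, as deposited, for annotated (Ensembl release 57) genes and isoforms and for de novo models (versions per the submitters' processing notes). The fraction that the authors deposited is a transcript's abundance relative to the main one of its locus, never under 5%, so an isoform at 0 may have been left out. Coverage, as deposited, served only to estimate depth.

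Genes missing from a library were set to 0. Symbols, GC content and exons came from GENCODE M21 by identifier. Transcripts were assigned to genes by identifier (38773), position (7680) or FPKM (424). Trends were fitted with limma 3.58.1 (R 4.3.3) on log2(FPKM + 0.1) over 11409 classifiable genes, with 4 residual degrees of freedom. On simulated data with 200 changed genes among 11409, the fit called 6% of 2-fold, 58% of 4-fold and 86% of 8-fold linear changes from A to F. In the real data a larger share was called (43.5%), which makes the adjusted threshold less strict, so these rates do not carry over. A gene that was not called may still change by such an amount. Segments were compared by non-overlap of deposited intervals. Named genes are the 9 members, the 3 most similar genes to each, isoforms with at least 10% of a gene, and per partner class the called genes with the most positive and most negative slope and the gene with the highest mean. Some genes that the rule names are not reported here. Neto2, Cacng4, Adarb1 and Grin1 were added after their values were seen. The members, the lists and the tests were chosen with earlier results of these data known. The isoform share fit, the de novo flip shares, Gria1 from protein-coding isoforms, and fits without A and F or isoform pairs without A were added after values were seen. P-values rest on single pools except in layer 4.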

Additional observations from a re-analysis of the deposited data

How the results depend on the processing

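Of 144 recomputed slopes of the subunit genes, 102 kept their direction and their side of the threshold, 38 kept the direction and were no longer called, 1 became called and 3 reversed. The reversed slopes were -0.09 for Gria2 and -0.08 for Gria4 with GC bins, and -0.11 for Gria4 without library A. Of the 7 subunit genes and 22 partner genes called, without library A 4 and 4 were called (10.1% of all genes), with a linear trend alone 3 and 8 (18.7% of all genes), with 6 separate segments 0 and 0 (0% by limma, 2111 of all genes at an unadjusted p under 0.05), and without libraries A and F 0 and 0 (2265 at an unadjusted p under 0.05). GC bins called 3 subunit genes (30.1% of all genes). Leaving out a replicate of layer 4 gave 6 to 7 subunit genes and 15 to 25 partner genes, while the share of all genes called went from 36.9% without B2 to 57.9% without B1. Grik4 lost its call without B2 (limma adjusted p = 0.0539), and over all its alternatives its adjusted p ran from 0.0145 to 0.314. The split of calls over all genes, 81.5% upward, was 52.6% with the median of ratios, 60.2% with the pan-neuron scale and 43.1% with GC bins.

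With intervals widened 2 times, 3 subunit genes differed between B1 and B2 and 3 between E and F. With the median of ratios 5 differed between A and F. With B1 alone, 7 differed between B and C, and over both replicates left out the count ranged from 5 to 7 there and stood at 7 between A and B. With each listed isoform, 7 genes had opposite isoform changes. The isoform share trend called 77 isoforms with a pseudocount of 1.

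GC bins moved the change from A to F to 3.06 for Grik3 over Grik2, 0.60 for Grik4 over Grik5, 3.20 for Grik1 to Grik3 over Grik4 and Grik5, -0.01 for Grik over Gria and 0.76 for Gria over Grin1. De novo models gave a flip share in A minus C of 36 points for Gria1, 55.1 for Gria2, 40.7 for Gria3 and -21.4 for Gria4, against 73.1, 49.7, 31.5 and 56.6 with Ensembl isoforms, and in F minus C of 28.3, -0.23, 23.1 and 33.4, against 42.2, 24.3, 3.47 and 43.8. The cause of these differences was not tested. In A the de novo set held no flop model of Gria2 or Gria3 and no flip model of Gria4. No paired analysis was possible because only layer 4 has numbered replicates. Only that pair holds variation between animals, as pools of different litters. Its libraries also differed in mean insert (239 nt in B1, 193 nt in B2) and depth (48.9 M and 74.9 M fragments). Litter and library cannot be told apart there. Depth was lowest in A, where the median interval of a gene was widest (16.8% of its value).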
